A study of Drosophila melanogaster with 3 samples.

Results

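The 8 genes described here encode transcription factors that give Drosophila neurons their identity: Lim1, Lim3, tup, ap and Awh of the LIM homeobox family, and the motor neuron factors exex, eve and zfh1. They are a list of named genes, drawn up with earlier results of these data known. Sites of Nerfin-1 were given to them by position, each summit (the point of highest signal in a peak) being given to whichever protein-coding gene had the closest transcription start site (TSS). By that rule the 8 genes, of 13945 protein-coding genes on the 6 large chromosome arms, held 25 of the 7056 summits of the list that passed the authors' threshold on irreproducible discovery rate (IDR). Each of the 8 held at least 1, where 28.6% of all protein-coding genes did. Closeness to a TSS does not show on which gene a site acts.

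LIM homeodomain proteins pair a DNA-binding homeodomain with LIM domains that bind cofactors, and in the nerve cord of insects and vertebrates combinations of them help set which muscles a motor axon reaches. In the fly, Lim3, tup (also called islet) and exex (the relative of vertebrate HB9) act in motor neurons that grow to ventral muscles, eve acts in motor neurons that grow to dorsal muscles, and zfh1 is needed in many motor neurons for their axons to leave the nerve cord. The gene ap marks a small set of interneurons and the dorsal side of the wing. Nerfin-1 is a zinc-finger protein of young neurons and a relative of vertebrate INSM1. Several of the 8 genes also work outside the nervous system, eve in segmentation and heart, zfh1 and tup in mesoderm and heart, and Awh in the precursors of adult structures.

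Binding was measured by chromatin immunoprecipitation and sequencing in whole embryos of mixed sex aged 4 to 16 h, in 3 biological replicates of 1 group, all from 1 transgenic fly line that expresses Nerfin-1 with a C-terminal GFP, a fluorescent tag, through which it was pulled down. The promoter that drives the transgene is not given in the sources used here. Each replicate list and the list of the whole series, called pooled here, held 30000 peaks, and the IDR list is the strongest 7056 of the pooled list. Ranks below count from 1, the highest signal deposited by the authors, within 1 list. The lists give no read depth and no expression values, so the tissue was not checked against markers, and in whole embryos the share of nuclei bound and the occupancy per nucleus cannot be told apart. Replicate 2 stood apart from the others. The 200 bp around its 7056 strongest summits held 36.5% G+C, against 42.0% in replicate 1 and 42.4% in replicate 3. Without replicate 2, with a summit required at most 100 bp away in the top 7056 of replicates 1 and 3 alike, 16 of the 25 summits remained. Each of the 8 genes still held at least 1. Leaving out replicate 1 or 3 in the same way kept 12 or 13 summits, each time at 6 of the 8 genes. The summits still came from the IDR list of the whole series, and the share of all IDR summits kept was not counted.

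The sequences at the leading sites differ in base composition. Shown are the 101 bp centred on the strongest IDR summit of 6 of the genes, and on the other summits that held 1 of the words searched for. They are RefSeq release 6 sequences, which share the coordinates of dm6, read on the plus strand, with the found word in capitals. The summits are those of Lim1 at chrX:8774070-8774170, zfh1 at chr3R:30781738-30781838, tup at chr2L:18890239-18890339, Awh at chr3L:3862593-3862693, Lim3 at chr2L:19090138-19090238 and exex at chr3L:7948081-7948181, then the promoter summit of tup at chr2L:18881347-18881447 and the weakest IDR summit of zfh1 at chr3R:30759156-30759256.
Lim1, strongest: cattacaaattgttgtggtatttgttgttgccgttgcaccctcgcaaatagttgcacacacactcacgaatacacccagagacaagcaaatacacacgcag
zfh1, strongest: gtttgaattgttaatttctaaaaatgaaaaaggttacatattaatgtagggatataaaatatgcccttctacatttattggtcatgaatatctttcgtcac
tup, strongest: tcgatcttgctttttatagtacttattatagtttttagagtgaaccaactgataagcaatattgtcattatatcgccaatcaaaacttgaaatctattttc
Awh, strongest: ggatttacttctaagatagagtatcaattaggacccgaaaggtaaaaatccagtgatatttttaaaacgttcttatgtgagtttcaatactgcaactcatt
Lim3, only summit: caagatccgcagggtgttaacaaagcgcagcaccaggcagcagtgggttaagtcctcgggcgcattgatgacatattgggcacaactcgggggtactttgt
exex, promoter: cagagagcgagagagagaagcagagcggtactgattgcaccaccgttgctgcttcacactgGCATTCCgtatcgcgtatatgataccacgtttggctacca
tup, promoter: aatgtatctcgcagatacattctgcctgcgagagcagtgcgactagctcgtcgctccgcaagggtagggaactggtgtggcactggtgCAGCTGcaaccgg
zfh1, weakest: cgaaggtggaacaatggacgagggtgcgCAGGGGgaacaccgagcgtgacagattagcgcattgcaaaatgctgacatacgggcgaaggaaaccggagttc

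Over 200 bp around the summit, G+C content was 30.0% at the leading site of Awh, 34.0% at that of tup and 35.0% at that of zfh1. It was 43.5% at the leading site of Lim1 and 44.5% at that of Lim3. The promoter summits of exex and tup held 53.0% and 61.0%. Over all 25 summits G+C was 42.9% ± 9.39 (SD over summits), against 39.7% ± 9.14 over the whole IDR list. The leading sites of zfh1, tup and Awh, with the lowest G+C of the 6, were also the leading sites that ranked better in replicate 2 than in either other replicate, as described below.

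Few word matches were found at the 25 summits. Within 50 bp of the summit and on both strands, the Scalloped word ACATTCC or GCATTCC was at 1 of 25, the exex promoter, where it began 11 bp to the right of the summit, and at 5.07% of all IDR summits. The E-box CAGCTG was at 1, the tup promoter, beginning 38 bp to the right, and at 4.58% of all. The word CAGGGG, the core of the site known for vertebrate INSM1, was at 1, the weakest zfh1 summit, beginning at -22 bp, and at 2.64% of all. The homeodomain core TAATTA (7.50% of all), the DREF word TATCGATA (1.54%) and the Zelda word CAGGTAG (0.539%) were at 0 of the 25, which allows a share of up to 12.0% from counting alone. No matches of different words overlapped. Taking any of these words, 3 of 25 summits held 1, against 20.2% of the IDR list. Within 100 bp 9 of 25 did, and the share of the IDR list in that wider window was not counted. A match is a run of letters and no evidence of a bound factor.

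Lim1 held the strongest site of the 8 genes. This gene, related to vertebrate Lhx1 and Lhx5, spans 49266 bp on the minus strand of the X (8756539 to 8805804, FBgn0026411). Its leading summit at 8774120 ranked 792 in the IDR list, 533 in replicate 1, 1468 in replicate 2 and 484 in replicate 3 (828 ± 555, SD, n = 3). It lay in intron 3 of the 6 of the longest transcript, 11233 bp downstream of the nearest Lim1 TSS. The next protein-coding TSS, of CG1789, was 53600 bp away. The other IDR summit of Lim1, 3156 bp from the first in the same intron, ranked 4516 in the list and 6416, 3682 and 7021 in replicates 1, 2 and 3. Below the IDR limit, Lim1 had more pooled summits than any other of the 8 genes, 31 in all, of which the IDR list took 6.45% (Wilson 95% interval over summits 1.79 to 20.7). Per 10 kb of the sequence nearest to its TSSs, Lim1 had 4.48 pooled summits. The 8 genes together had 4.97 and all arms 2.24. Lim1 thus combined 1 strong site with many weak ones along a long gene.

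The gene zfh1 had the most IDR summits, 7, a number that 0.624% of all protein-coding genes reached. The sequence nearest to its TSSs was 38.8 kb long, against a median of 4.24 kb over all genes. The share among genes of like length was not counted. The number of summits was smaller when a replicate was left out. Summits also among the 7056 strongest of both remaining replicates numbered 3 without replicate 1, 4 without replicate 2 and 4 without replicate 3. The same counts at tup, with 6 in the list, were 3, 4 and 3, so that zfh1 led only without replicate 3. It lies on the plus strand of 3R (30765926 to 30789202, FBgn0004606). The leading summit at 30781788 ranked 1034 in the IDR list and 1482, 804 and 2033 in replicates 1, 2 and 3 (1440 ± 616, SD, n = 3). It sat in intron 3 of 4, 1470 bp upstream of the internal TSS of zfh1 and also inside the antisense gene asRNA:CR45189. A further summit 219 bp away ranked 5563. The summit at the upstream promoter, 57 bp from the TSS, ranked 3981 in the list and 2117, 6952 and 4142 in the replicates. Another in intron 1 ranked 5882. A pair 202 bp apart lay 4629 and 4427 bp upstream (ranks 3881 and 5530), and the weakest, 6720 bp upstream, ranked 6493. Of the pair, the second varied most among the 20 summits found in all 3 replicates, with ranks of 5524, 2891 and 18684 in replicates 1, 2 and 3, a range of 6.46-fold. The first of the pair and the weakest summit had none within 100 bp in replicate 2, where the nearest lay 120 and 250 bp off.

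At tup all 6 IDR summits lay upstream of the TSS and none in the gene. The gene occupies 18859507 to 18881261 on the minus strand of 2L (FBgn0003896) and encodes Islet. Its leading summit at 18890289, 9028 bp upstream, ranked 1806 in the IDR list and 2367, 1628 and 2677 in replicates 1, 2 and 3 (2224 ± 539, SD, n = 3). Further upstream followed summits at 13991 bp (rank 7006), 18192 bp (rank 3019), 18807 bp (rank 4523) and 25584 bp (rank 5917). These 4 were found in each replicate, and all ranked better in replicate 2 than in the others. The summit 13991 bp upstream, the weakest of the 25 in the IDR list, ranked 9346, 4952 and 24234. The 5 distant summits were nearer to start sites of the long non-coding genes lncRNA:CR44737, lncRNA:CR44738 and lncRNA:CR44739 than to tup. With TSSs of non-coding genes counted, tup kept 1 summit, the promoter summit 136 bp upstream. That one ranked 6322 in the list, 4474 in replicate 1 and 5915 in replicate 3. It had no summit within 100 bp in replicate 2, where the nearest was 160 bp away.

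**Figure D1:**
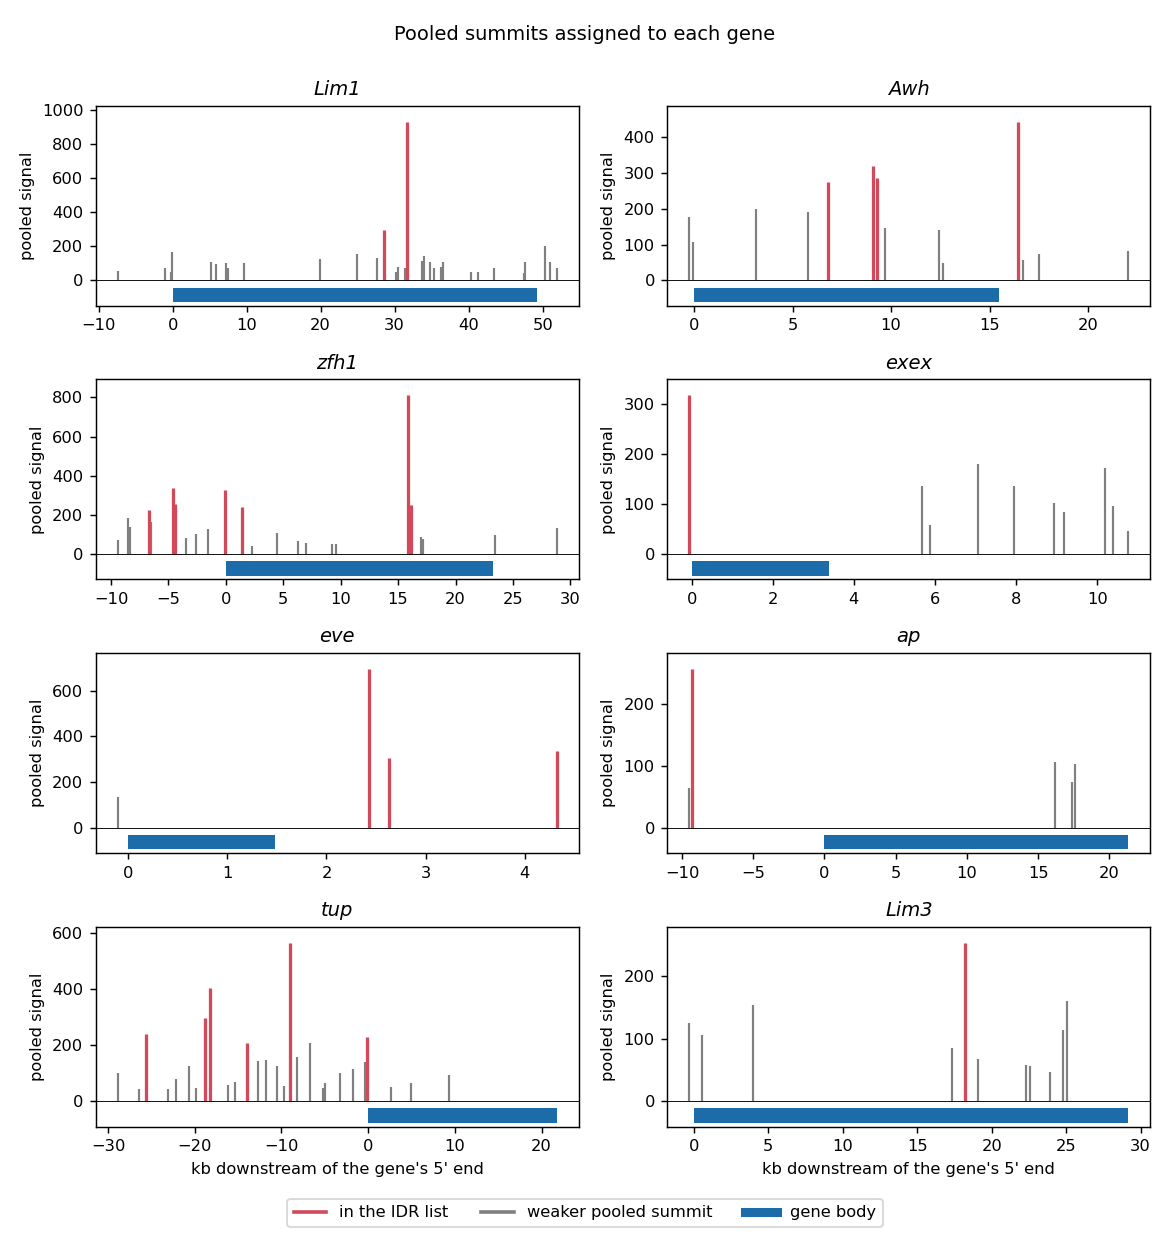
Summits of the pooled list assigned to each of the 8 genes, by distance in kb from the 5′ end of the gene (positive values run along transcription) and by the authors' deposited signal. Red lines are IDR summits, grey lines weaker pooled summits and blue bars gene bodies. Each panel has its own scale. The 5 distant summits of tup lie upstream, the leading summits of Lim1 and zfh1 inside the gene, and the 3 of eve downstream of its short gene.

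Lim3 held 1 IDR summit, and 2 more lay inside the gene but nearer to another TSS. Lim3, on the minus strand of 2L (19079256 to 19108427, FBgn0002023), has 6 annotated TSSs. Its summit at 19090188 in intron 2 of 7 ranked 5553 in the IDR list, 3851 in replicate 1, 12012 in replicate 2 and 3367 in replicate 3. The same intron holds the gene CG17344 on the opposite strand. The summits at 19103407 and 19098265, 1363 and 3779 bp from its TSS, ranked higher than the one given to Lim3, at 3880 and 3984. They lay 2868 and 8010 bp from a Lim3 TSS. Their ranks were 3267, 7213 and 2125, and 3874, 9089 and 1846, in replicates 1, 2 and 3. All 3 sites ranked worse in replicate 2 than in either other replicate.

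The site of exex was at its promoter. The gene is 3378 bp long on the plus strand of 3L (7948186 to 7951563, FBgn0041156), with 1 TSS, and its only IDR summit lay 55 bp upstream. That summit ranked 4158 in the IDR list and 6373, 6885 and 2196 in replicates 1, 2 and 3 (5151 ± 2572, SD, n = 3). Its range of 3.14-fold between replicates was above the median of 2.69-fold over the 20 summits found in all 3. Another 9 pooled summits of exex fell below the IDR limit, all of them downstream of the gene body.

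The dorsal motor neuron gene eve had the most IDR summits per length. It is 1477 bp long on the plus strand of 2R (9979319 to 9980795, FBgn0000606), and its 3 IDR summits lay downstream of the gene, 2424, 2629 and 4324 bp from the TSS. The strongest, at 9981743, ranked 1321 in the IDR list and 1045, 2347 and 824 in replicates 1, 2 and 3 (1405 ± 823, SD, n = 3). The second shares its peak interval, 205 bp away, and ranked 4334. It had no summit within 100 bp in replicate 1, where the nearest was 115 bp off, and ranked 3936 and 7488 in replicates 2 and 3. The third, at 9983643, ranked 3848 in the list and 2802, 8624 and 2825 in the replicates. The sequence nearer to its TSS than to any other is here called its territory. Over that sequence eve had 3.37 IDR summits per 10 kb, where the 8 genes together had 0.979 and all arms 0.527. Not every gene of the 8 was denser than all arms. Lim1 and ap were below that value, at 0.289 and 0.285. The rest were above it, Lim3 least so at 0.582. In the pooled list eve did not lead, with 4.49 summits per 10 kb against 8.24 at exex, 6.61 at tup and 6.40 at Lim3. Each of the 3 summits was nearer to the start of the non-coding gene asRNA:CR43948 than to that of eve, and with non-coding TSSs counted eve held 0. Without replicate 1, 2 or 3 in turn, eve kept 1, 2 and 1 of its summits.

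The wing and interneuron gene ap had 1 weak IDR summit and 1 strong site in a single replicate. Its IDR summit on 2R, at 5736797, lay 9272 bp upstream of the gene (5706202 to 5727525, minus strand, FBgn0267978) and ranked 5469. It ranked 3499 in replicate 1 and 2405 in replicate 3. In replicate 2 the nearest summit was 140 bp away. In replicate 3 the strongest ap summit was another, at 5726973, 141 bp from an ap TSS, in sequence of 61.5% G+C. It ranked 1462. The nearest summit to it was 7687 bp away in replicate 1, 9390 bp in replicate 2 and 9824 bp in the pooled list. This site was picked out after its values were seen, and it counts as unreplicated.

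Awh, which takes part in forming the precursor cells of adult structures, held 4 IDR summits. It lies on the plus strand of 3L (3846206 to 3861692, FBgn0013751). Its leading summit at 3862643, past the end of the gene and 16437 bp from the TSS, ranked 2640 in the IDR list and 3574, 1953 and 5941 in replicates 1, 2 and 3 (3823 ± 2006, SD, n = 3). The other 3 lay in intron 1 of 5, at 6774, 9098 and 9299 bp from the TSS, with list ranks of 5051, 4123 and 4810. The last of them was among the 7056 strongest peaks in replicate 3 only, with ranks of 7751, 7685 and 5827. Counting non-coding TSSs left Awh with 2 summits, because the start of lncRNA:CR45379 is nearer to the leading summit, at 1781 bp, and to the one at 9299 bp, from which it lies 8919 bp away. Without replicate 1, 2 or 3 in turn, Awh kept 2, 1 and 2 of its summits.

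**Figure D2:**
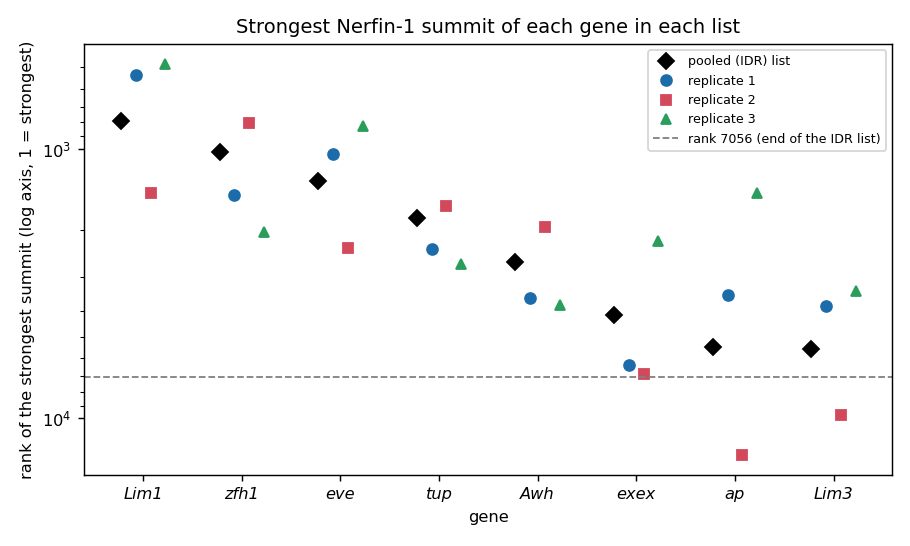
Rank of the strongest summit assigned to each gene in the pooled list and in each replicate, on a log axis with stronger sites higher. The strongest site need not be the same in each list. Points for ap and Lim3 in replicate 2, at ranks 13725 and 9747, lie below the dashed line at rank 7056.

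Ordered by their best IDR rank, the genes ran Lim1 (792), zfh1 (1034), eve (1321), tup (1806), Awh (2640), exex (4158), ap (5469) and Lim3 (5553). Of the neighbours in this order, only tup and Awh kept their order in all 3 replicates, and the ranges of each pair of neighbours overlapped. The best ranks of Lim1 in the replicates ran from 484 to 1468, those of zfh1 from 804 to 2033, those of eve from 824 to 2347 and those of tup from 1628 to 2677. Lim1 and tup did not overlap. The best ranks of Awh ran from 1953 to 3813, those of exex from 2196 to 6885, those of ap from 1462 to 13725 and those of Lim3 from 3367 to 9747, each range overlapping the one before it in the order. The 25 summits had a median rank of 4516 in the IDR list, whose own median is 3528.5, and 6 of 25 were in the stronger 3528. Those 6 belonged to Lim1, zfh1, eve, tup (2 of them) and Awh, and each was found in all 3 replicates. How many of all the stronger 3528 were found in all 3 was not counted.

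The summits of these genes were mostly far from protein-coding start sites. Of the 25, 11 were intergenic (44.0% against 14.2% of all IDR summits), 9 intronic (36.0% against 32.8%), 1 in a non-coding exon and 4 within 500 bp of a TSS (16.0% against 50.1%). One of the 4, at tup, was at a non-coding TSS. The median distance to the TSS of the gene was 6774 bp, against 633.5 bp over the IDR list, and 14 of 25 were over 5000 bp away (56.0% against 20.5%). Many of the distant summits were nearer to a non-coding TSS. With TSSs of every gene counted, 8 of 25 were over 5000 bp away (32.0% against 15.6%) and the median distance was 2364 bp, against 497 bp over the IDR list. The territories of the 8 genes were long, with a median of 33.4 kb (8.90 at eve to 69.1 at Lim1) against 4.24 kb over all genes. Among the 3816 genes with a territory at least as long as that of eve, the shortest of the 8, 43.4% had an IDR summit. That comparison was chosen after seeing the data and did not match the genes on territory length. Of the summits of those 3816 genes, 31.7% were at promoters, 19.9% were intergenic and 34.1% were over 5000 bp away. Their median distance was 2374 bp. These shares are descriptions of a small set of genes, and the difference was not tested.

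**Figure D3:**
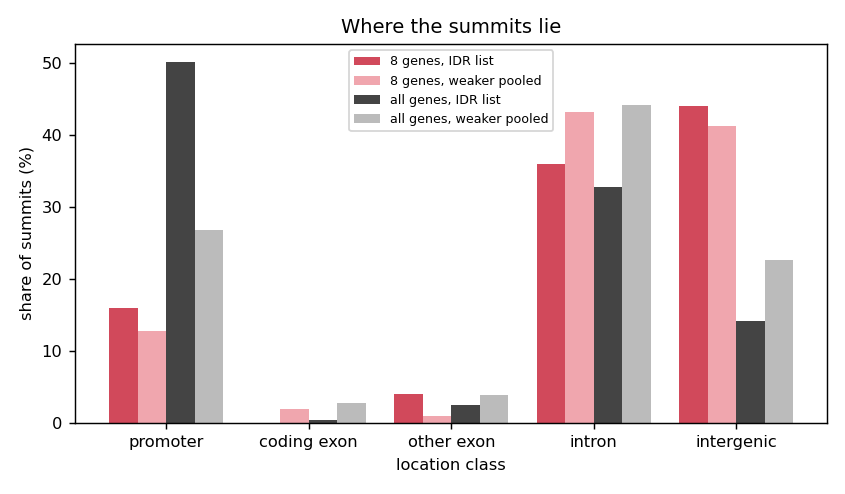
Share of summits in each location class, in percent, for the 25 IDR and 102 weaker pooled summits of the 8 genes beside the 7056 IDR and 22944 weaker pooled summits of all genes. Intergenic bars are higher and promoter bars lower for the 8 genes, in both the IDR and the weaker set.

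At their own promoters, 3 of the 8 genes (exex, tup and zfh1) had an IDR summit, where 20.3% of all genes did. In the whole pooled list 7 of 8 had one, all but ap, against 41.1% of all genes. The best pooled promoter summits below the IDR limit ranked 8575 at Awh, 8958 at Lim1, 9495 at Lim3 and 11449 at eve. In that list the promoter summit of these 4 genes was weaker than their best distal or intronic one. This holds by construction, because each had an IDR summit elsewhere and none at its promoter. Single replicates differed: the Awh promoter ranked 6161, 15194 and 3813 in replicates 1, 2 and 3, and in replicate 3 it was the strongest Awh summit. The best Lim3 promoter summit ranked 7094, 12992 and 4352, but not at the same TSS. It lay 24.9 and 25.0 kb from the 5′ end of the gene in replicates 1 and 3, and 0.568 kb from it in replicate 2. Near the first of these positions, at 25.2 kb, the summit of replicate 2 ranked 21177. The Lim1 promoter ranked 11526, 14382 and 5160. The eve promoter ranked 8738, 22169 and 10533. At all 7 genes with a pooled promoter summit, exex, tup and zfh1 included, the best promoter rank was worst in replicate 2. At these 7 genes, the replicate with the lowest G+C at its sites thus also had the weakest promoter ranks. The share over the promoters of all genes was not counted, and the relation was not tested. In all, 127 of the 30000 pooled summits lay at the 8 genes. Each of the 8 held at least 1, where 51.8% of all genes did. The fewest was 4, at eve, and the share of all genes with as many was not counted. The IDR list took 19.7% of the 127 (Wilson 95% interval over summits 13.7 to 27.4), against 23.5% of the whole list. The share was 75.0% at eve (3 of 4), 29.2% at zfh1 (7 of 24), 28.6% at Awh (4 of 14), 21.4% at tup (6 of 28), 20.0% at ap (1 of 5), 10% at exex (1 of 10) and 9.09% at Lim3 (1 of 11).

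The sites recurred in single replicates with shares on either side of those of the whole IDR list. In the top 7056 of a replicate, a summit at most 100 bp away was found for 19 of the 25 in replicate 1, 18 in replicate 2 and 19 in replicate 3 (18.7 ± 0.577, SD, n = 3). These are 76.0%, 72.0% and 76.0%, against 78.2%, 73.8% and 73.8% of all IDR summits. All 3 replicates held 10 (40.0%, against 47.3% of all IDR summits), 2 replicates held 11 (44.0% against 32.4%) and 1 replicate held 4 (16.0% against 19.0%). The 10 belonged to Lim1, zfh1, eve, tup, Awh and exex. Against all 30000 peaks, 24, 21 and 25 were found in replicates 1, 2 and 3. These are 96%, 84% and 100%, against 94.4%, 92.7% and 92.0% of all IDR summits. The 4 missing from replicate 2 were those of ap, the tup promoter and the 2 upstream zfh1 sites described above. Counted in each replicate on its own, genes with a summit among the strongest 7056 numbered 8 of 8 in replicate 1 (27.2% of all genes), 6 of 8 in replicate 2 (30.3%) and 8 of 8 in replicate 3 (26.9%), and the 8 genes then held 26, 21 and 30 summits. The 2 genes without one in replicate 2 were Lim3 and ap.

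Rank in replicate 2 moved with base composition at these sites. Of the 20 summits found in all 3 replicates, 11 ranked better in replicate 2 than in both others and 6 ranked worse than in both. All 10 with G+C below 39.7%, the mean of the IDR list, ranked better in replicate 2 than the mean of replicates 1 and 3. They belonged to tup, Awh, zfh1 and Lim1. Of the 10 at or above it, 7 ranked worse, belonging to Lim1, Lim3, eve, exex, zfh1 and Awh. Across these 20 sites, which come from the same 3 libraries and 7 genes, the log2 ratio of the replicate 2 rank to the mean of the others rose with G+C (Spearman's rho = 0.695, Pearson's r = 0.735). Over 5798 IDR summits found in all 3 replicates rho was 0.675, close to the value at these genes. The part of base composition in the order of the 8 genes was not tested.

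**Figure D4:**
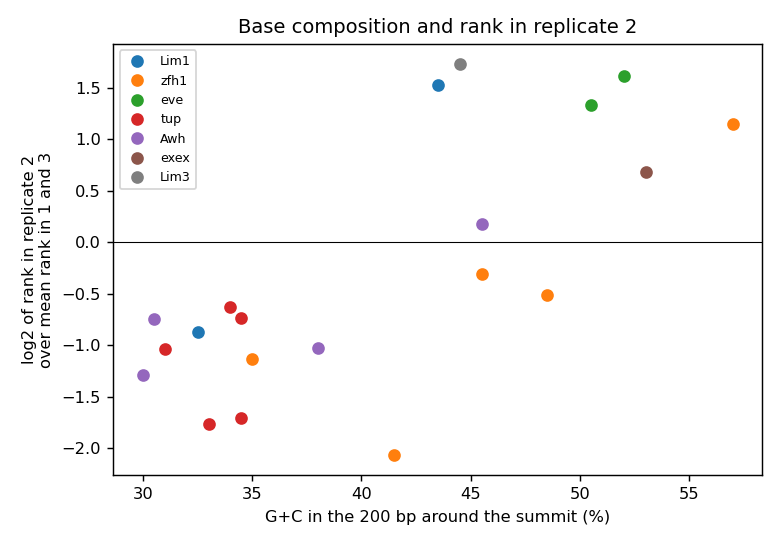
G+C content (%) of the 200 bp around 20 IDR summits, 1 point each and coloured by gene, against the log2 ratio of the rank in replicate 2 to the mean rank in replicates 1 and 3. Points below 0 are sites that ranked better in replicate 2, and the 5 distant sites of tup all lie there, at 34.5% G+C or less.

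Other genes of the same programme were read from 3 lists. Over all protein-coding genes, 28.6% had an IDR summit, and 26.9% to 30.3% had one in the top 7056 of a single replicate. Over genes with a territory at least as long as that of eve, 43.4% had an IDR summit. Territories in the 3 lists ran from 1.36 to 75.4 kb, and the differences from these shares were not tested. Of 5 partners and further LIM homeobox genes, 3 had an IDR summit (60%), and 3 in each replicate. They were Ssdp (rank 2021), a cofactor that binds the LIM adaptor, CG4328 (rank 2393), a relative of vertebrate Lmx1 genes, and Bx (rank 3345), a LIM-only protein that competes with ap for that adaptor. The adaptor gene itself, Chi, which bridges LIM homeodomain proteins, and Lmx1a had none. Chi had 1 weak pooled summit in a territory of 1.36 kb.

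Of 20 other identity factors, 14 had an IDR summit (70%, against 28.6% of all genes). Among the strongest peaks of single replicates it was 14.7 ± 1.53 (SD, n = 3) of the 20 factors. The 14 were led by vvl, a POU factor, with 9 summits and a best rank of 387, and by zfh2, a relative of zfh1, with 5 and a best rank of 399. In the IDR list both vvl and zfh2 outranked each of the 8 genes. Without an IDR summit were, among others, eg and unc-4. At eg a summit 295 bp from the TSS ranked 3047 in replicate 2, in sequence of 28.5% G+C, and the nearest summit in the other replicates was 15026 bp away or more. That site was picked out after its values were seen. Of 11 motor axon guidance, adhesion and transmission genes, 7 had an IDR summit (63.6%, against 28.6% of all genes), and 9 ± 1 in single replicates (SD, n = 3). Those with the best ranks were fra, the Netrin receptor gene (538), and robo2, a Slit receptor gene (1413). Without one were beat-Ia, needed for motor axons to leave their bundle, and VGlut, the vesicular glutamate transporter of motor neurons. Single replicates did hold strong summits at some of these genes. The best VGlut summit ranked 5026, 6465 and 6302 in replicates 1, 2 and 3, and that of unc-4 ranked 6136, 6718 and 4441, all within the top 7056. The best of beat-Ia ranked 8398, 6755 and 6556, within it in replicates 2 and 3. For VGlut, unc-4 and beat-Ia the summits were not matched by position, so the best need not be the same site in each replicate.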

How the data were processed

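Peak lists in narrowPeak columns on dm6 were deposited by the authors for 3 biological replicates and, for the whole series, an IDR-thresholded list and a longer one. The longer list is called pooled here because it belongs to no single replicate, and no label says how it was made. The IDR list is identical to its strongest 7056 peaks. The labels name a possible control experiment, not analysed here, and do not say how it was used. For the aligner, peak caller and IDR threshold, no name or value is given in the sources used here. Each peak has a signal (column 7), the authors' deposited value with no normalization stated. It served only to rank peaks within a list. The −log10 q-values the authors deposited (column 9) reached their ceiling in 100% of IDR peaks and were not used. Summits were taken as the start plus the deposited offset (column 10) and are given 1-based. Fragments were 200 to 800 bp long per the labels. Depth is unknown, so Wilson intervals cover counting over summits only.

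Genes and TSSs (every transcript) came from Ensembl release 115, without pseudogenes and transposable elements. Classes were assigned in the order promoter (within 500 bp of a TSS of any gene), coding exon, other exon, intron, intergenic. Summits within 100 bp were counted as shared, and each replicate was cut to its 7056 strongest peaks unless stated. The samples form 1 group, so no test was run. The 8 genes and the lists were chosen with earlier results of these data known. All 44 listed genes were matched, 2 by an alias added after the annotation was seen. Named beside the 8 were the 2 best-ranked genes of each list, up to 2 without an IDR summit, and the next gene of a summit. Bx, the eg site, the ap site in replicate 3 and CG17344 were named after their values were seen. Assignment and matching were tested on simulated data. Python 3.11.15, pandas 2.3.3, scipy 1.17.1 and matplotlib 3.10.9 were used. Alternatives changed the assignment, strength limit, distances, word window and replicates.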

Additional observations from a re-analysis of the deposited data

How the results depend on the processing

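Depth is unknown, and with 25 summits the shares are coarse. No paired analysis was possible because the 3 samples form 1 group. The number of the 8 genes with an IDR summit was 8, and stayed at 8 with the pooled list or 1 summit per interval. It was 7 with TSSs of non-coding genes counted, 3 within 1000 bp of a TSS, 4 inside gene bodies and 5 in the stronger 3528 summits. Leaving out each replicate in turn gave 6 to 8, the lower value without replicate 1 or 3, where ap and Lim3 were lost. The 25 summits became 15 with non-coding TSSs counted, 3 within 1000 bp, 6 in the stronger 3528 and 127 in the pooled list. They became 12 without replicate 1, 16 without replicate 2 and 13 without replicate 3. These settings keep fewer or more summits by construction. Inside gene bodies lay 11 summits, made up of 9 of the 25 and the 2 in Lim3 that were nearer to the TSS of CG17344. The 4 promoter summits became 0 in the stronger 3528 and 17 in the pooled list, and 3 to 4 without 1 replicate. Summits found in all 3 replicates numbered 10, then 6 in the stronger 3528, 6 within 50 bp and 20 against whole lists. Summits with a word went from 3 to 9 within 100 bp, a window of more bases. Without tup and zfh1, a setting chosen after seeing the data, there were 12 summits, 1 of them at a promoter and 5 in all 3 replicates. Of 127 values for single genes under the alternatives, 50 moved. Most alternatives drop summits without ranking them anew, so that best ranks had little room to change. Genes of the 3 further lists with an IDR summit numbered 24 and ran from 18 to 22 without 1 replicate, 16 in the stronger 3528 and 34 in the pooled list, all chosen after seeing the data.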
